A study of Mus musculus with 12 samples.

Results

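The 6 conventional actin genes of the mouse, Actb, Actg1, Acta1, Acta2, Actc1 and Actg2, were followed in the striatum of SRF mutant and control mice. Every probe set that the platform annotation assigns to exactly 1 of these 6 symbols was taken, which gave 6 of 12394 named genes and 11 of the 22690 probe sets on the array. Actb had 5, of which 3 are array control probe sets placed along its transcript (5′, middle and 3′), Acta2 had 2, and Actg1, Acta1, Actc1 and Actg2 had 1 each. Log2 signals were compared in 4 groups of 3 arrays: controls given saline, controls given cocaine, SRF mutants given saline and SRF mutants given cocaine. All animals were single-caged littermate females, 10 to 15 weeks old and handled for 5 days, and the striatum with the nucleus accumbens was taken 1 hour after intraperitoneal injection. Cocaine was given at 25 mg/kg. The treatment text of the labels gives this cocaine injection for every animal, so saline rests on the sample titles. The titles abbreviate the controls as wt and also call them control. Beyond that, the labels give neither the Srf allele of the mutants, nor the cells in which Srf was changed, nor what the controls carry.

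Actin monomers polymerise into filaments that support cell shape, transport and the dendritic spines of neurons. Actb and Actg1 encode the cytoplasmic β- and γ-actin present in nearly every cell. Acta1 and Actc1 encode the α-actins of skeletal and cardiac muscle, and Acta2 and Actg2 the α- and γ-actin of smooth muscle, in brain chiefly that of vessel walls. SRF, the serum response factor, binds a DNA element called the CArG box together with ternary complex factors or with myocardin-related transcription factors (MRTFs). Actin genes are long-known targets of SRF, and actin monomers hold MRTFs inactive, so that actin feeds back on its own transcription.

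The promoters are shown because the genes share SRF as a known regulator while, of the 4 that could be tested in this tissue, 2 were lower in mutants. RefSeq promoters (GRCm38.p6) were at hand for Actg1, Acta1, Actc1 and Acta2 and covered 250 bases before to 50 bases after the transcription start. None was at hand for Actb and Actg2. Of the genes lower in mutants, Actb and Actg1, only Actg1 is therefore printed, and the printed Actc1 was not tested. They were searched for the CArG box, CC followed by 6 bases that are each A or T and then GG, which reads the same form on both strands, and for near matches in which 1 of the 6 middle bases is C or G. The 250 bases before each start are printed 5′ to 3′ along the gene, which lies on the minus strand in all 4 cases, with exact and near boxes in capitals. The coordinates are chr11:120348496-120348745 for Actg1, chr8:123894776-123895025 for Acta1, chr2:114052876-114053125 for Actc1 and chr19:34255374-34255623 for Acta2.
Actg1: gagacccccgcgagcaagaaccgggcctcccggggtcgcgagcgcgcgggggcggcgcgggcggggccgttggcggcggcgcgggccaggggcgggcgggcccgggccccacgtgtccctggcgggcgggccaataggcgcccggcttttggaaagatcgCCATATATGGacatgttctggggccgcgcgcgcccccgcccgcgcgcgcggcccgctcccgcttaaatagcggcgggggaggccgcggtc
Acta1: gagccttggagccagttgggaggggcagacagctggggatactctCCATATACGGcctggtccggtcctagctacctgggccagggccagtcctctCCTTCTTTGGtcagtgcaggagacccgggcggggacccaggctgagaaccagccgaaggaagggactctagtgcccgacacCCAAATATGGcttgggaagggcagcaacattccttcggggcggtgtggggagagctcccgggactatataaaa
Actc1: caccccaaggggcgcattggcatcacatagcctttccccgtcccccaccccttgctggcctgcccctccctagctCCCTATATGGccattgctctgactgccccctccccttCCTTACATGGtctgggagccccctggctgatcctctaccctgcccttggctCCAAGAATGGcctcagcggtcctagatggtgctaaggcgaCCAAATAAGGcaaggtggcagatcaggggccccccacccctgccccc
Acta2: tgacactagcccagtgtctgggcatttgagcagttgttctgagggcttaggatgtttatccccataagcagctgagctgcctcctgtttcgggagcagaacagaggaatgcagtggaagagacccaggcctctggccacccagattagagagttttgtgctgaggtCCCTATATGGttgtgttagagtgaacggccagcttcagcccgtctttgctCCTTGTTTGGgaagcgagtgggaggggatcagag
The Actg1 promoter held 1 exact box, CCATATATGG, 90 to 81 bases before the start. The Acta1 promoter held the exact box CCAAATATGG, 73 to 64 bases before the start, and 2 near matches. The Actc1 promoter held the exact box CCAAATAAGG, 47 to 38 bases before the start, and 3 near matches. The Acta2 window held 0 exact boxes and 2 near matches, CCCTATATGG and CCTTGTTTGG. Of 32851 RefSeq promoters of this length, 1.63% held an exact box and 9.98% an exact or a near one. A match is a description of the letters and shows neither binding nor a cause.

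The titles gave the groups and replicate numbers. The description field conflicts with them. It lacks the title's word control or mutant for 10 of the 12 arrays and the title's word saline or cocaine for 9. The 4 arrays titled control that it calls mutant had Srf signals of 6.97 to 7.21. Srf was 6.97 to 7.21 in all 6 arrays titled control and 5.01 to 5.49 in the 6 titled mutant, a fitted change of -1.83 ± 0.0662 (limma SE), so the titles were used. Srf does not check the treatment, so every cocaine and saline value rests on the titles, a conflict that was not tested. Over tested probe sets, arrays of 1 group correlated at 0.986 to 0.993, and arrays of different groups at 0.976 to 0.990. Medium spiny neurons are the main neurons of the striatum. Of their 8 tested markers, 2 were called higher in mutants (Tac1 by 0.35 and Penk by 0.19) and 1 lower (Rgs9, -0.33). By limma 5 of the 8 had an unadjusted p under 0.05, as had 2605 of all 11105 tested probe sets. The median change of the 8 was 0.14. Among all tested genes 4.78% were called higher and 5.92% lower. The summed linear signal of the 8 was 9473 to 10448 in control arrays and 10161 to 11388 in mutant arrays. Of 3 cortical projection neuron markers, 0 passed the filter on dim signals. Of the astrocyte, oligodendrocyte, microglia, endothelial and pericyte markers tested with limma, at 1 probe set per gene, 0 were called (1 at an unadjusted p under 0.05, the astrocyte gene Gfap), and a second, dimmer Gfap probe set was called higher by 0.80. Of the 3 probe sets of the medium spiny neuron gene Pde10a, a dimmer one was also called higher, by 0.58. The linear signal of the 1 choroid plexus marker past the filter, Ttr, was 779 in replicate 3 of the cocaine-treated controls. In the other control arrays it was at most 8.78, and in mutant arrays 8.29 to 59.5. Without replicate 3 of the cocaine-treated controls Actg1 changed by -1.23 and Actb (1436722_a_at) by -0.90. The part of choroid plexus content in the actin values was not tested.

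Actg1, which encodes cytoplasmic γ-actin, was lower in every mutant array. For the probe set 1415779_s_at, the control arrays gave 11.18, 11.36 and 11.30 with saline and 11.29, 11.27 and 11.38 with cocaine. The mutant arrays gave 10.12, 10.14 and 9.90 with saline and 9.99, 10.13 and 10.02 with cocaine. The 6 mutant arrays all lay more than 1 log2 unit under the lowest control array, and the groups did not overlap. Group means were 11.28 ± 0.0931 and 11.32 ± 0.0573 (SD, n = 3) in controls and 10.05 ± 0.136 and 10.05 ± 0.0712 in mutants, after saline and cocaine respectively. Over both treatments the log2 change, mutant against control, was -1.25 ± 0.0617 (SE; 95% interval -1.38 to -1.11), a 2.37-fold lower signal, with a limma adjusted p of 7.64e-08. Ranked by size of change, it was number 10 among the 564 probe sets called lower.

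Actb, which encodes cytoplasmic β-actin and is widely used as a reference gene, was lower in mutants by 4 of its 5 probe sets. Control signals of the probe set 1436722_a_at were 11.84, 11.74 and 11.72 with saline and 11.74, 11.73 and 11.78 with cocaine. Mutant signals were 10.90, 10.89 and 10.72 with saline and 10.84, 10.88 and 10.87 with cocaine. All 6 mutant arrays lay below all 6 control arrays, and the means were 11.77 ± 0.0615 and 11.75 ± 0.0283 in controls against 10.84 ± 0.102 and 10.86 ± 0.0246 in mutants (SD, n = 3). The change over both treatments was -0.91 ± 0.0526 (SE; 95% interval -1.02 to -0.79), 1.88-fold lower, with a limma adjusted p of 2.46e-07.

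The 3 control probe sets along the Actb transcript were lower too. The 3′ set read 11.83, 11.67 and 11.73 in saline-treated controls, 11.68, 11.74 and 11.82 in cocaine-treated controls, 10.82, 10.63 and 10.53 in saline-treated mutants and 10.63, 10.64 and 10.71 in cocaine-treated mutants. Its change was -1.09 ± 0.0611 (2.12-fold lower, limma adjusted p = 2.02e-07). The 5′ set read 10.77, 10.57 and 10.66, then 10.64, 10.78 and 10.78 in the same order of control groups, and 9.61, 9.50 and 9.27, then 9.26, 9.41 and 9.34 in mutants. Its change was the largest of the Actb sets, -1.30 ± 0.0681 (2.46-fold lower, limma adjusted p = 1.14e-07). The middle set read 10.14, 9.98 and 10.04, then 10.09, 10.15 and 10.11 in controls, and 9.05, 8.86 and 8.68, then 8.70, 8.74 and 8.89 in mutants, a change of -1.27 ± 0.0683 (limma adjusted p = 1.42e-07). In all 3 sets every mutant array lay below every control array. These sets measure 1 transcript in the same RNA and are not independent of 1436722_a_at.

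Over both treatments 5 of the 8 actin probe sets tested were called lower at a limma adjusted p under 0.05 and 0 higher, and in the same 5 the 6 mutant arrays did not overlap the 6 control arrays. Across all 11105 probe sets tested, 5.08% were called lower and 4.43% higher, and 3.14% were lower without overlap. The 5 stand for 2 of the 4 actin genes tested. In tissue RNA, fewer cells of a type and less transcript per cell cannot be told apart. The spread is that between samples the titles call biological replicates, and the number of arrays limits the precision.

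**Figure D1:**
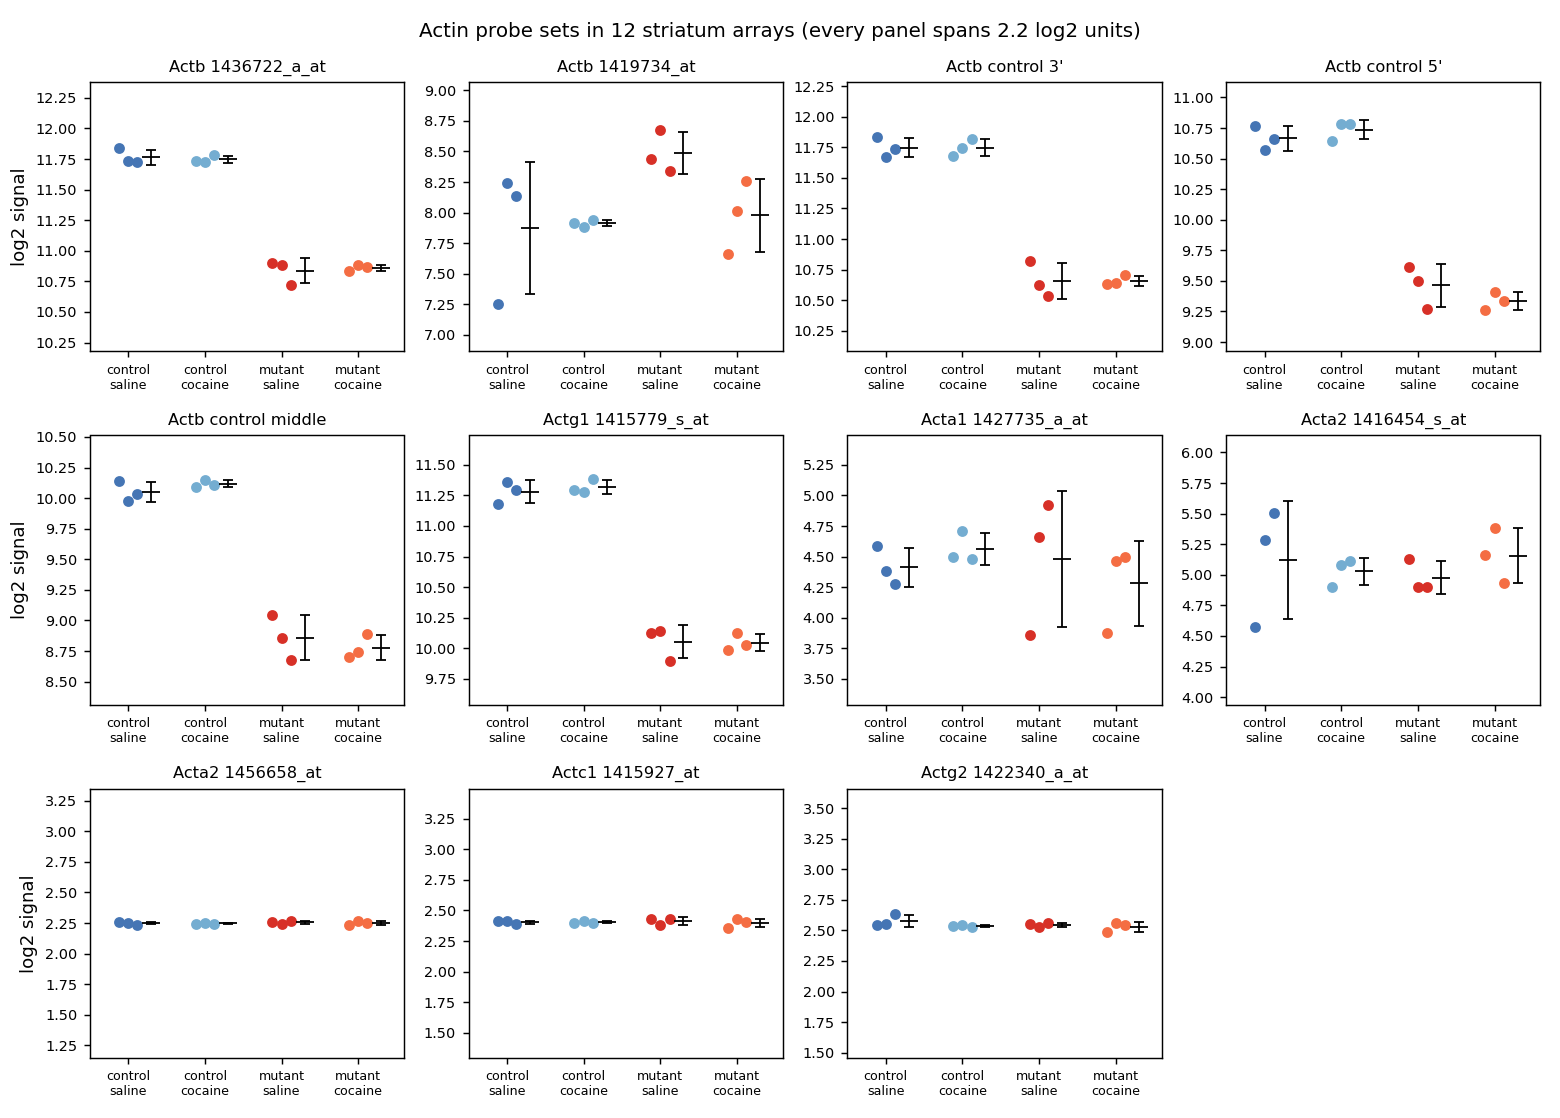
Log2 signal of each of the 11 actin probe sets in the 12 arrays, 1 panel per probe set, by group, with the group mean and SD (n = 3) beside the points. Actg1 and the 4 brighter Actb probe sets sit lower in all 6 mutant arrays, while Actb 1419734_at, Acta1 and Acta2 overlap between genotypes.

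The fifth Actb probe set, 1419734_at, was not lower in mutants. It read 7.25, 8.24 and 8.13 in saline-treated controls, 7.92, 7.88 and 7.94 in cocaine-treated controls, 8.44, 8.68 and 8.34 in saline-treated mutants and 7.66, 8.01 and 8.25 in cocaine-treated mutants. The saline-treated mutants were all above the saline-treated controls, as were 9.18% of all tested probe sets, and the cocaine-treated groups overlapped. The change was 0.34 ± 0.153 over both treatments (limma adjusted p = 0.205), 0.61 ± 0.217 after saline (0.182) and 0.06 after cocaine (0.922), so it passed the threshold in none of them. Replicate 1 of the saline-treated controls was its lowest array. Without that array the change after saline was 0.30 with a limma adjusted p of 0.368. The sources used here do not give the stretch of Actb that this probe set reads.

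The disagreement between Actb probe sets was measured within arrays, which removes any level common to an array. Differences between pairs of probe sets were compared between genotypes with a two-sided exact permutation test over the 400 relabellings of genotype within treatment, whose smallest possible p is 0.005, adjusted over 11 pairs. The 1436722_a_at set minus 1419734_at was 3.86 ± 0.382 in controls (3.49 to 4.58) and 2.62 ± 0.351 in mutants (2.21 to 3.17; SD, n = 6), a difference of -1.24 (exact permutation p = 0.005, adjusted 0.0055) with no overlap. The 3′, 5′ and middle sets minus 1419734_at differed by -1.42, -1.64 and -1.60, each at the same adjusted p of the exact permutation test. The value of such a difference is no level of either probe set, and only its shift between genotypes is read.

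Among the 4 Actb probe sets that were lower, the size of the change also differed. The 3′ set fell less than the 5′ set: the 3′ minus 5′ difference was 1.05 ± 0.0489 in controls (0.962 to 1.11) and 1.26 ± 0.0952 in mutants (1.13 to 1.37; SD, n = 6), 0.21 higher in mutants (exact permutation, adjusted p = 0.0055). The 3′ minus middle difference was 0.18 higher in mutants at the same adjusted p of that permutation test. The 5′ and middle sets could not be separated (-0.04, exact permutation p = 0.395), and their ranges overlapped. The set 1436722_a_at fell least: relative to it the 3′, middle and 5′ sets were lower by a further 0.18, 0.36 and 0.39 in mutants, without overlap between genotypes. For Gapdh, whose control probe sets are also bright, the 3′ minus 5′ difference was -0.113 ± 0.0359 in controls and -0.103 ± 0.031 in mutants with overlapping ranges. For Pcx it was 3.28 in controls and 3.25 in mutants, also overlapping. For Tfrc it was 0.77 in controls (0.555 to 0.869) and 1.12 in mutants (0.862 to 1.29), ranges that overlapped at their edge. The 5′ set of Pcx and both control sets of Tfrc read under the filter's floor of 4. The part of RNA quality in the Actb differences was not tested beyond these values.

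Actg1 fell by more than Actb 1436722_a_at in the same arrays. The Actg1 minus Actb difference was -0.657 to -0.373 in control arrays and -0.847 to -0.746 in mutant arrays, with means of -0.46 ± 0.101 and -0.80 ± 0.0448 (SD, n = 6). The shift was -0.34 (exact permutation p = 0.005, adjusted 0.0055), a further 1.27-fold. Against the 3′, middle and 5′ Actb sets no such test was made; their changes of -1.09, -1.27 and -1.30 lie on both sides of the Actg1 change of -1.25. How far Actb and Actg1 differ therefore depends on the Actb probe set used. The suffixes _s_at and _a_at mark probe sets that can match more than 1 transcript. Actin transcripts are alike in their coding parts, and any share of signal from a related actin was not separated. The same limit holds for Acta2 1416454_s_at.

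**Figure D2:**
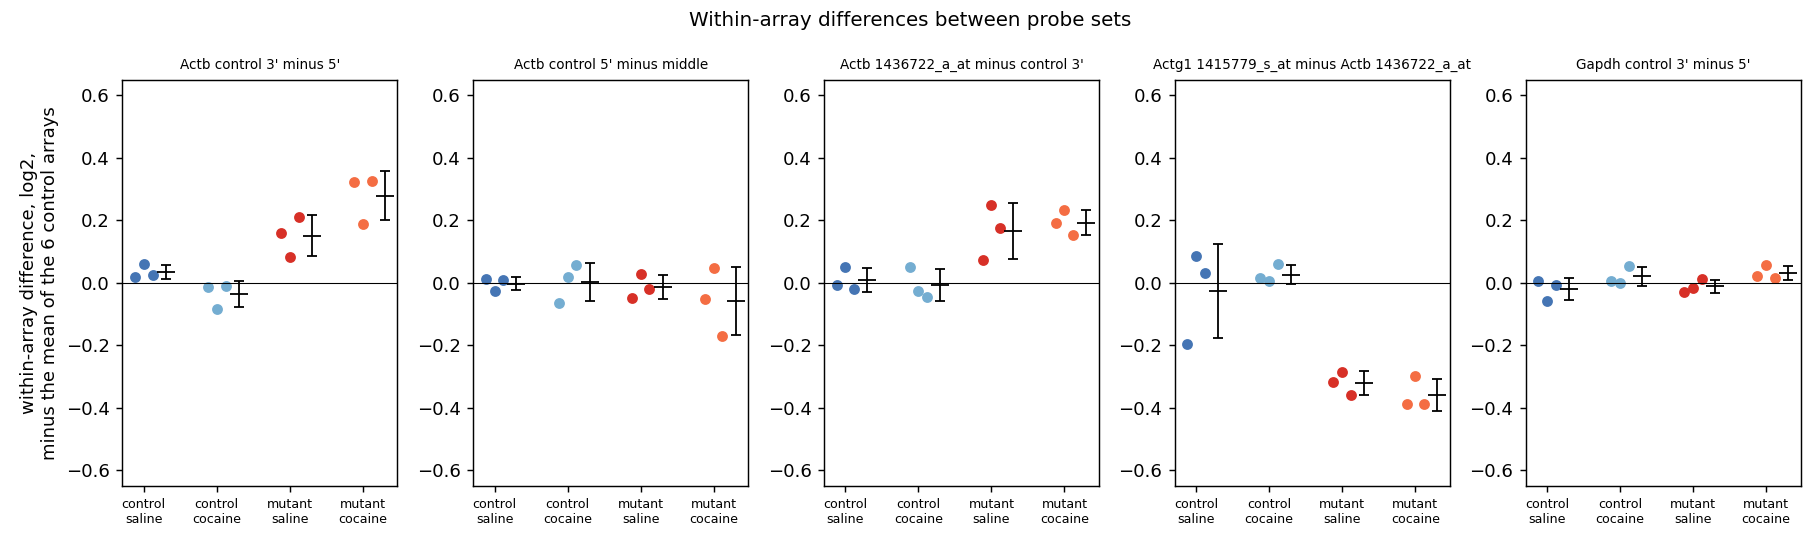
Differences between 2 probe sets of the same array (log2), each less the mean of the 6 control arrays, by group, with group mean and SD (n = 3). Mutant arrays lie above 0 for Actb 3′ minus 5′ (shift 0.21) and below 0 for Actg1 minus Actb 1436722_a_at (shift -0.34), and around 0 for Gapdh 3′ minus 5′.

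The genotype difference was about as large after saline as after cocaine. Actg1 changed by -1.23 ± 0.0873 after saline (limma adjusted p = 6.51e-06) and by -1.27 ± 0.0873 after cocaine (2.77e-06). Actb 1436722_a_at changed by -0.93 and -0.89 (limma adjusted p = 1.51e-05 and 1.52e-05). The 3′ set changed by -1.09 in both treatments, the 5′ set by -1.20 and -1.40, and the middle set by -1.19 and -1.34. In each treatment 5 of the 8 actin probe sets were called lower by limma, without overlap between groups, and 0 higher (0 of the rest at an unadjusted p under 0.05 after cocaine and 1, Actb 1419734_at, after saline). Of all tested probe sets, 1.67% were called lower, 1.35% higher and 9.75% were lower without overlap after saline, and 1.95%, 2.27% and 13.9% after cocaine.

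Cocaine itself changed no actin probe set past the threshold within 1 hour. By limma, 0 of 8 were called in controls (0 at an unadjusted p under 0.05), in mutants (1 at an unadjusted p under 0.05) and over both genotypes (0), where 0.45%, 1.92% and 2.31% of all tested probe sets were called. The change with cocaine over both genotypes was 0.01 for Actg1 (95% interval -0.12 to 0.15) and 0.01 for Actb 1436722_a_at (-0.11 to 0.12). The 1 at an unadjusted p under 0.05 was Actb 1419734_at in mutants, which was -0.51 ± 0.217 with cocaine; its 3 cocaine-treated arrays lay under the 3 saline-treated ones (limma adjusted p = 0.398), where 7.65% of all tested probe sets were lower without overlap. The difference between the genotypes' responses was called for 0 of 8 actin probe sets by limma (0 at an unadjusted p under 0.05), against 0.072% of all tested. It was -0.04 for Actg1 (95% interval -0.31 to 0.22), 0.04 for Actb 1436722_a_at (-0.18 to 0.27) and -0.20 for the Actb 5′ set (-0.49 to 0.10). The estimate of largest size was that of Actb 1419734_at, -0.54 (-1.21 to 0.12). Acta1 gave -0.35 (-1.06 to 0.36) and Acta2 0.27 (-0.32 to 0.86). A difference in response of these sizes was therefore not resolved with 3 arrays a group.

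**Figure D3:**
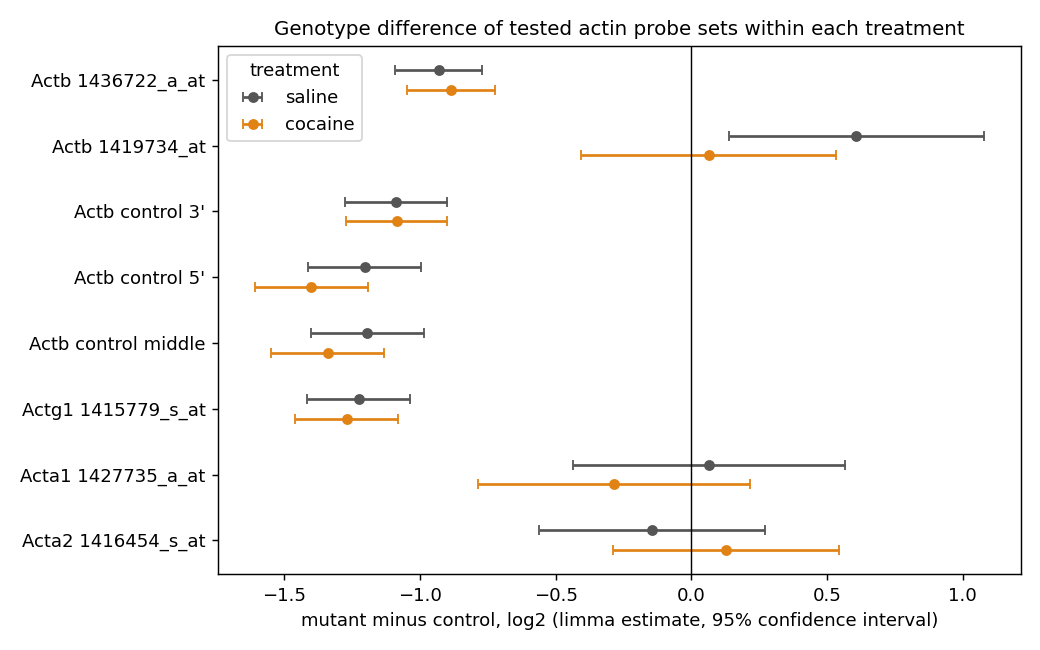
Log2 change, mutant against control, of the 8 actin probe sets tested, after saline and after cocaine, with 95% intervals from limma. Actg1 and 4 Actb probe sets lie between -0.89 and -1.40 in both treatments, and the intervals of Acta1 and Acta2 include 0. The interval of Actb 1419734_at lies above 0 after saline (0.14 to 1.08) and includes 0 after cocaine.

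Acta2, the actin of vascular smooth muscle and many pericytes, did not separate the genotypes. The probe set 1416454_s_at read 4.57, 5.28 and 5.50 in saline-treated controls, 4.90, 5.08 and 5.11 in cocaine-treated controls, 5.13, 4.90 and 4.90 in saline-treated mutants and 5.16, 5.38 and 4.93 in cocaine-treated mutants. The genotypes overlapped in both treatments, and the saline-treated controls held both the lowest and the highest of the 12 arrays. The change was -0.01 ± 0.136 over both treatments (95% interval -0.30 to 0.29; limma adjusted p = 0.982), -0.14 after saline and 0.13 after cocaine. An interval this wide includes a fall of up to 0.30 and does not show that the gene was unaffected. Without replicate 1 of the saline-treated controls the change after saline was -0.42 (limma adjusted p = 0.139), and without replicate 3 it was 0.05.

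The lowest and the highest array for Acta2 were also those of other vessel transcripts, while arrays between them did not keep 1 order. The summed linear signal of 3 pericyte markers (those past the filter, of 7 on the array) was 224 in replicate 1 and 519 in replicate 3 of the saline-treated controls, the lowest and the highest of all arrays, and 343 to 470 in mutants. The sum of 4 endothelial markers (of 7 on the array) was 89.5 and 194 in those 2 arrays and 134 to 170 in mutants. The sum of 2 smooth muscle markers (Mylk and Myl9, of 9) was 29.1 and 46.1 there and 31.3 to 38.2 in mutants, while Myh11, Tagln, Cnn1 and Des were among the 7 under the filter. Counted from the lowest of the 12 arrays, replicate 2 of the cocaine-treated mutants was number 11 for Acta2 but 6, 5 and 7 for the pericyte, endothelial and smooth muscle sums. Replicate 2 of the cocaine-treated controls was number 6 for Acta2 but 11, 10 and 11 for these sums. The part of vessel content in the Acta2 values was not tested.

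**Figure D4:**
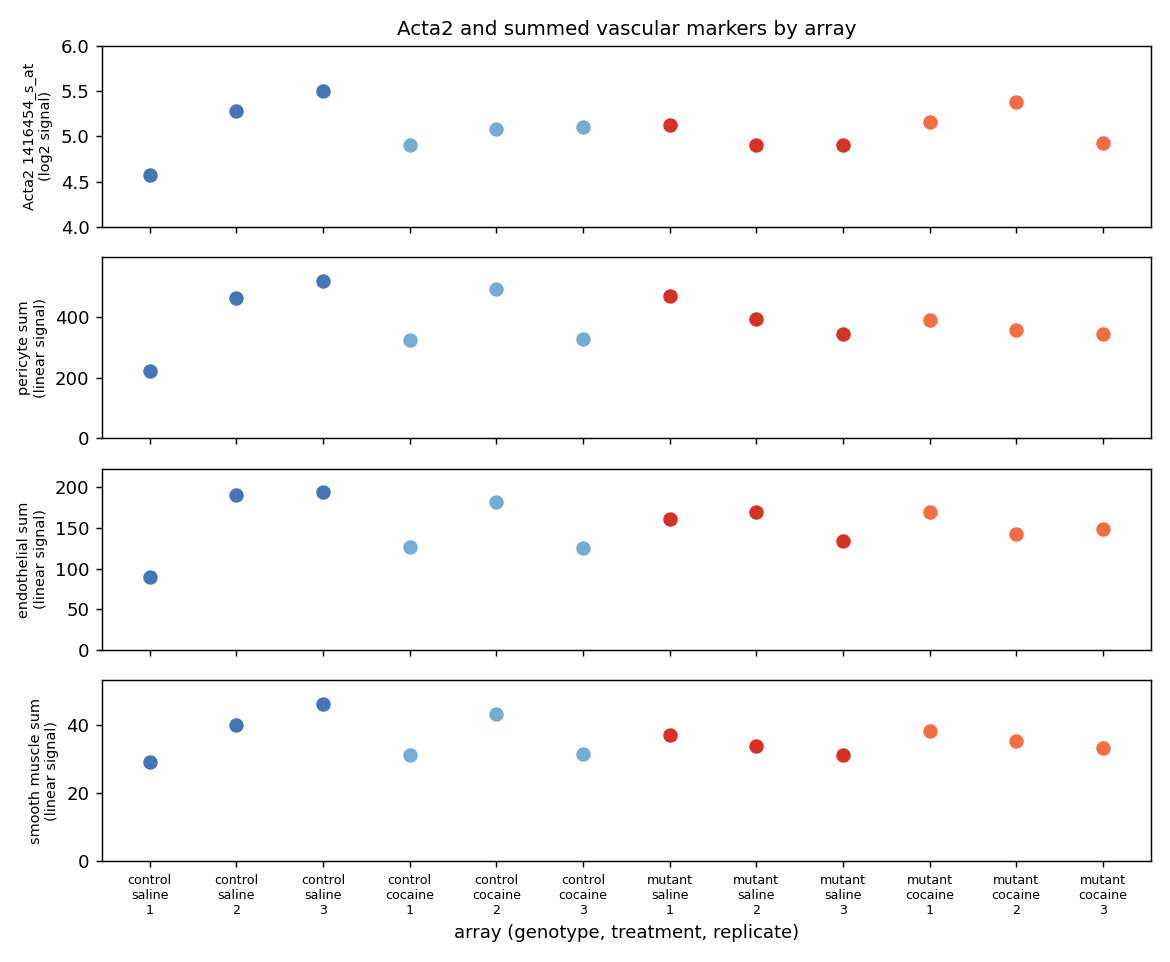
Acta2 log2 signal (1416454_s_at) and the summed linear signals of pericyte, endothelial and smooth muscle markers in each of the 12 arrays, in 4 panels, coloured by group. Replicate 1 of the saline-treated controls is lowest and replicate 3 highest in all 4 panels, and mutant arrays lie between them.

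Acta1, the skeletal muscle α-actin, was dim and did not separate the genotypes. The probe set 1427735_a_at read 4.59, 4.38 and 4.28 in saline-treated controls, 4.49, 4.71 and 4.48 in cocaine-treated controls, 3.86, 4.66 and 4.92 in saline-treated mutants and 3.88, 4.46 and 4.50 in cocaine-treated mutants. Its highest and its lowest array were both saline-treated mutants, whose SD was 0.555 against 0.16 in saline-treated controls. The change was -0.11 ± 0.164 over both treatments (95% interval -0.46 to 0.25; limma adjusted p = 0.741), and the sign differed between treatments, 0.06 after saline and -0.28 after cocaine. Of 12 skeletal and cardiac muscle markers, 0 passed the filter, and the highest of their mean signals was 3.79.

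The remaining 3 probe sets did not exceed a log2 signal of 4 in any of the 12 arrays and were not tested. Actc1, the cardiac α-actin, read 2.36 to 2.43, Actg2, the smooth muscle γ-actin of gut, read 2.49 to 2.63, and the second Acta2 probe set, 1456658_at, read 2.23 to 2.27. At this level the authors' background correction leaves little spread, and a difference between genotypes was not detectable. The 2 Acta2 probe sets thus disagreed on whether Acta2 was measured at all.

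The transcripts whose pattern over the 12 arrays was most like that of an actin were found by the root mean square difference between centred log2 signals, so that both size and shape count. Among other genes, with the array's control probe sets left out, those nearest to Actb 1436722_a_at were Necab2, a neuronal calcium-binding protein (0.084), Doc2b, a calcium sensor of vesicle release (0.121), Cd59a (0.126), Cdc42ep3, an effector of the Cdc42 GTPase (0.127) and Gcnt2 (0.138). Their changes in mutants were -0.85, -1.01, -0.74, -0.91 and -0.81. By the same rule those nearest to Actg1 were Gdpd5 (0.111), a second Doc2b probe set (0.115), the tropomyosin gene Tpm1 (0.149), Synpr, a synaptic vesicle protein (0.175), and Actb (0.184). The first 4 of these changed by -1.27, -1.22, -1.18 and -1.25 in mutants. Among actin probe sets the Actb 5′, middle and 3′ control sets lay 0.104, 0.107 and 0.123 from Actg1, the first 2 closer than Gdpd5 and all 3 closer than 1436722_a_at, and Acta2 and Acta1 lay 0.655 and 0.656 away. The Actb 3′ control set lay 0.102 from 1436722_a_at, closer than Doc2b. The likeness is a description over arrays that share the genotype difference.

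Genes of actin dynamics were counted by lists, with 1 probe set per gene. Of all 6651 genes tested, 4.78% were called higher and 5.92% lower in mutants over both treatments, with a median change of -0.02. Among SRF and its coregulators, Srf alone of 4 tested genes was called, and Mrtfa, which encodes an actin-regulated MRTF, was -0.15 (limma adjusted p = 0.359). Of 22 tested genes for actin-binding proteins known as SRF targets, 7 were called lower and 3 higher, with a median of -0.09. Flna, the filament cross-linker filamin A, fell by 1.20 ± 0.126 and Tpm1, whose protein winds along filaments, by 1.18 ± 0.0702, where a second Tpm1 probe set fell by 0.25. Itga5, an integrin subunit, rose by 1.25 ± 0.17, from 3.54 to 4.79, so its control level lay under the floor of 4, as did that of Tpm2, called higher from 3.69 to 4.21. The brightest uncalled gene of the list was Tpm3, at 0.04.

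Of 12 tested genes for actin-related proteins, the Arp2/3 complex, which starts filament branches, and capping protein, 5 were called lower and 0 higher (median -0.07). They were Arpc1a (-0.29), Capzb (-0.26), Arpc5 (-0.23), Arpc2 (-0.23) and Actr3 (-0.21). Capza2 was uncalled at 0.02. Of 16 tested genes for monomer binding and nucleation, 5 were called lower and 1 higher (median -0.09), led by Diaph2, a formin (-0.58), Cap1 (-0.53) and Cap2 (-0.38). Cap1 and Cap2 encode cyclase-associated proteins that recycle monomers, and Tmsb4x, for the monomer-sequestering thymosin β4, was uncalled at -0.01. Cap1 read 4.17 in controls and 3.65 in mutants, under the floor of 4, so it passed the filter through the controls and the size of its change depends on background correction. Pfn1, for profilin 1, rose by 0.28. Cap1, Cfl1, Cfl2 and Pfn1 stand both in the list of actin-binding proteins and in that of monomer binding and nucleation. Of 15 tested genes for folding and modification of actin, 0 were called by limma and 1 had an unadjusted p under 0.05 (median -0.02). Cocaine over both genotypes called 0 genes in these lists by limma except Elk4, a ternary complex factor, which rose by 0.34 (limma adjusted p = 0.0305), against 2.32% of all genes called higher. In controls alone limma called 0 of the 4 tested genes of its list with cocaine (0 at an unadjusted p under 0.05). In mutants alone 1 was called higher (2 at an unadjusted p under 0.05). Of all genes, 0.586% and 1.98% were called higher there. The difference between the genotypes' responses was called for 0 of the 4 (2 at an unadjusted p under 0.05).

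**Figure D5:**
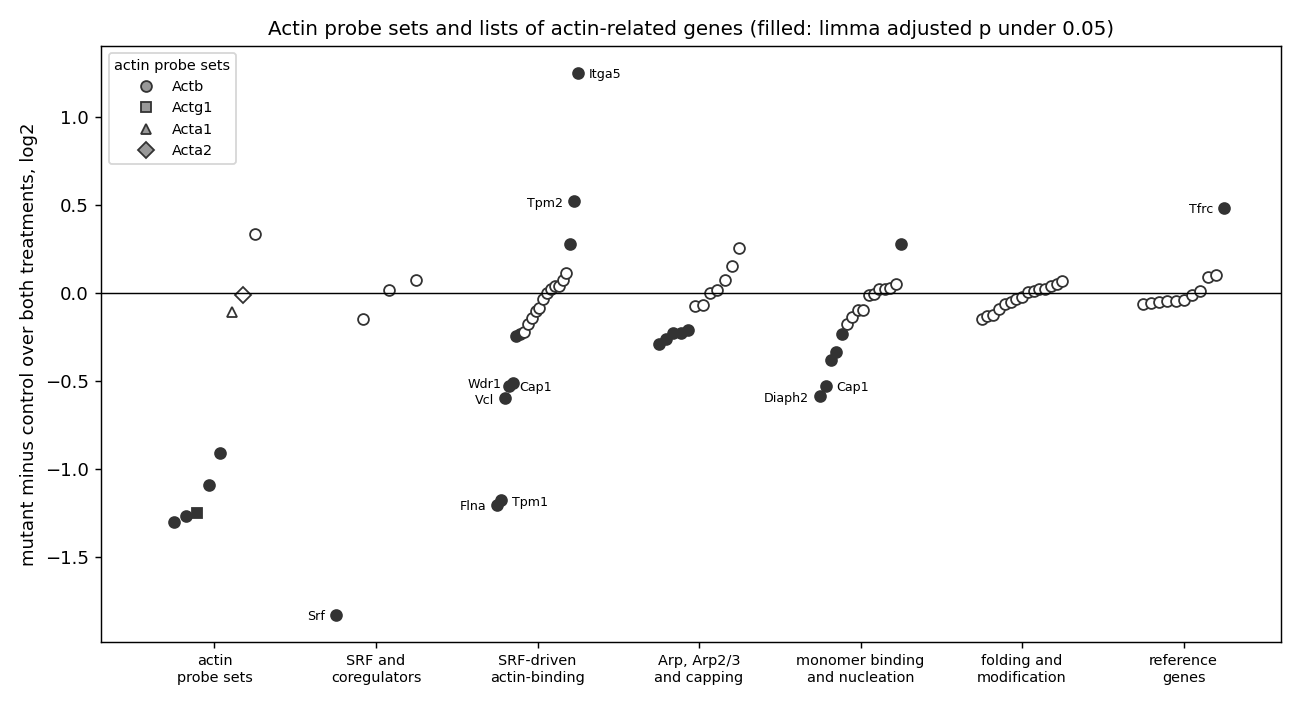
Log2 change of each tested gene, mutant against control over both treatments, by gene list, with the 8 actin probe sets in the first column and called ones filled (limma adjusted p under 0.05). Actg1 and the 4 called Actb sets lie lower than every gene of the Arp2/3 and folding lists, and Tfrc, at 0.48, is the 1 filled reference gene at 1 probe set per gene.

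Actb was set beside genes used like it as references. Of 11 other reference genes tested with limma, at the brightest probe set of each, 0 were called lower and 1 was called higher, also the only 1 at an unadjusted p under 0.05, the transferrin receptor gene Tfrc (0.48 ± 0.0945, limma adjusted p = 0.00609). B2m, for β2-microglobulin, was uncalled at its brighter probe set (0.09), and its dimmer one was called higher by 0.32. Eef1a1, the brightest uncalled one, was -0.04 (limma adjusted p = 0.612). As deposited, 492 probe sets were called higher and 564 lower over both treatments, with a median change of -0.01. When every array was scaled to Actb 1436722_a_at, an alternative chosen after seeing the data, the median moved to 0.90, and 11039 probe sets were called higher and 18 lower. This scaling adds the Actb change to every probe set, so its values restate that change and are no separate test. Relative to Actb, Actg1 was -0.34, the shift already given, and Acta2 and Acta1 turned to 0.90 and 0.80, both called higher. The directions given for Acta2, Acta1 and Actb are those relative to the arrays' own common level.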

How the data were processed

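Gene expression was measured on 12 Affymetrix arrays, 1 sample each. Per the submitters' processing notes the authors used GCRMA in R 2.4.1, and the deposited table holds its log2 signals. GCRMA corrects background from probe sequence and brings arrays to a common level, so a shift common to all genes is no longer visible (array medians 3.75 to 3.78). The log base is not given in the sources used here; array minima of 1.26 to 1.29 and maxima of 13.0 to 13.1 are those of log2 output. Raw scanner values were not used here.

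Probe sets above a log2 signal of 4 in at least 3 of the 12 arrays were tested, control probe sets left out except the 3 annotated to Actb, which left 11105. Limma 3.58.1 in R 4.3.3 was fitted on all 12 arrays with 4 group means, and variances were moderated by eBayes (degrees of freedom 8 residual, 4.71 prior). P-values were adjusted by Benjamini-Hochberg over all tested probe sets, two-sided, and called under 0.05. The fit was tested on simulated data. Names come from the platform annotation, in which 20393 probe sets carry 1 symbol, 691 several and 1606 none; Entrez identifiers of 20364 matched a RefSeq table of GRCm38.p6.

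All actin probe sets and Srf are named. For each gene list, up to 3 called genes with the largest change and the brightest uncalled gene are named, and for each called actin the 5 genes most like it. Other list members were named after their values were seen, where a count is spelled out. Actin genes and lists were chosen with earlier results of these data known. Alternatives covered filter, scaling, array weights, variance prior, the groups in the fit, the replicate number and each array left out.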

Additional observations from a re-analysis of the deposited data

How the results depend on the processing

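Actg1 and the 4 lower Actb probe sets kept their direction and their call in every alternative run, apart from scaling to Actb 1436722_a_at itself, where that set is 0 by construction. With each array left out in turn, the change over both treatments was -1.27 to -1.21 for Actg1 and -0.92 to -0.88 for Actb 1436722_a_at. The 11 within-array differences kept their side of the threshold in all 143 refits. Counts over all probe sets left the range of 1.5 times as follows; which probe sets caused it was not tested. With no filter the interaction gave 5 calls against 8. Array weights gave 714 against 468 for genotype after cocaine and 88 against 50 for cocaine in controls. A fit of only the compared groups gave 158 against 335 for genotype after saline. Scaling to Actb, chosen after seeing the data, gave 11057 against 1056 for genotype over both treatments, and moved Acta2 from -0.01 to 0.90 Acta1 from -0.11 to 0.80 and Actb 1419734_at from 0.34 to 1.24, since it adds the Actb change to every probe set. With 1 array left out, calls ranged from 816 to 1095 for genotype over both treatments, 222 to 353 after saline (335 with all arrays, 222 without mutant saline replicate 3) and 270 to 542 after cocaine (468 with all arrays, 270 without mutant cocaine replicate 1 and 311, 309 and 275 without control cocaine replicates 1, 2 and 3). For cocaine they ranged from 40 to 56 in controls, 131 to 240 in mutants (213 with all arrays, 131 without mutant cocaine replicate 1 and 141 without replicate 2), 187 to 248 over both, and 6 to 9 for the interaction. The replicate numbers did not pair the samples: deviations of same-numbered arrays correlated at -0.144 to 0.116. With the replicate number as a block, 910 were called for genotype over both treatments, 290 after saline, 392 after cocaine, 46, 178 and 216 for cocaine in controls, in mutants and over both, and 7 for the interaction, and Actg1 and Actb 1436722_a_at stayed at -1.25 and -0.91. Signals near the floor of 4 (Acta1) or well under it (the dim Acta2 set, Actc1 and Actg2) limit what could be seen of the muscle actins.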
